A study of Homo sapiens with 6 samples.

Results

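The genes described here are the 118 named long intergenic RNA genes that carried enough reads to be measured, out of 258 genes whose symbol in the deposited expression table was LINC followed by a number, in a table of 22925 genes. They were chosen by that name and by a mean of at least 5 normalized reads over all 6 libraries; the difference between the groups was not used, but this mean includes both groups. A normalized read is a read scaled by the size factor that the authors gave its library. All 118 were matched to GENCODE release 29 by gene identifier. There 95 were typed as long intergenic RNA, 8 as processed transcripts, 5 as antisense, 5 as pseudogenes of several types, 2 as bidirectional promoter transcripts and 3 as protein-coding, and 24 now go under another symbol. The name thus covers several kinds of transcript.

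Long intergenic RNAs are transcripts of stretches between protein-coding genes that are not known to be translated. Many are spliced and polyadenylated like messenger RNA but are made at low levels and in few cell types. Some act on chromatin or on neighbouring genes, some bind microRNAs or proteins in the cytoplasm, a few encode short peptides, and for the majority no function is known.

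Poly(A) RNA of HT-1080, an established human fibrosarcoma cell line, was sequenced after 48 h with 20 μM PhenDC3 in 1% DMSO or with 1% DMSO alone, in 3 libraries each. PhenDC3 is a synthetic ligand that binds G quadruplexes, folded structures of guanine-rich nucleic acid, and the study asked how it affects transcription. All cells carried the same solvent and came from a single line, and nothing in the labels says that the 3 libraries of a group came from separate cultures, so that the p-values reflect the spread among these libraries, which may be technical. In such bulk RNA, fewer cells of a kind and less RNA per cell cannot be told apart.

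The PhenDC3 libraries held 7371056 to 9386691 reads and the DMSO libraries 12574952 to 14292987, and DMSO replicate 3 differed most from the other libraries of its group. Of 6 mesenchymal markers, summed levels were 28943 to 29235 normalized reads in PhenDC3 libraries and 47482 to 50589 in DMSO libraries, with VIM, FN1, CD44 and COL4A1 lower, S100A4 not called (53.4 with PhenDC3 and 43.5 with DMSO) and THY1 under the minimum mean (5.43 with PhenDC3 and 1.52 with DMSO). Of 5 epithelial markers, 3 had values, summing to 1350 to 1511 with PhenDC3 and 1139 to 1397 with DMSO, with KRT8 higher (log2 change 0.20), ELF3 higher (10.6 normalized reads with PhenDC3 and 0.259 with DMSO) and CLDN4 not called. ELF3 met the minimum mean for testing only through its PhenDC3 values. CD68, the blood marker with values, had 15.4 normalized reads with PhenDC3 and 5.98 with DMSO, and EGFL7, the endothelial one, had 280 with PhenDC3 and 257 with DMSO. EPCAM, CDH1, PTPRC, CD3E, PECAM1 and CDH5 were not analysed here. The part of these shifts in the results below was not tested.

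More of the LINC genes were higher with PhenDC3 than lower. In limma, fitted to log2(value + 1) of the 16482 genes whose mean was at least 5 and called at an adjusted p under 0.05, 51 of 118 were higher (43.2%), against 29.2% of all genes tested (59.6% in either direction). A further 16 were lower (13.6%), against 30.4% of all genes tested, and 51 were not called. The share called lower followed abundance: at a mean of 5 to under 20, 38% of the LINC genes were higher and 10% lower, beside 23.3% and 10.4% of all genes tested. At 20 to under 100, 42.2% were higher and 13.3% lower, beside 26.5% and 26.7% of all genes tested, and at 100 or more, 56.5% and 21.7%, beside 32.0% and 38.5%. The median log2 change was 0.36 over the 118 and -0.02 over all genes tested, with 75 of the LINC genes above 0 and 43 below. Their quartiles were -0.21 and 1.13, and the range ran between -2.72 and 5.76.

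Among called LINC genes, 33 were higher by 1 or more on the log2 scale, where 9.87% of all genes tested were, and 8 were lower by as much, where 6.46% were. At a log2 change of 2 or more there were 10 higher and 2 lower, beside 2.62% and 0.546% of all genes tested. Among the 105 LINC genes with both group means at 5 or more, 22 were higher and 7 lower by 1 or more, and 5 higher and 1 lower by 2 or more. The matching shares of all genes with both means at 5 or more were not computed. In 53 LINC genes every PhenDC3 library lay above every DMSO library (31.5% of all genes tested), and in 20 every PhenDC3 library lay below (32.6%, and 64.1% in either direction). These 2 measures gave nearly the same genes, since 1 called gene had overlapping libraries and 7 genes whose libraries did not overlap were not called.

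Counts and directions were close under other processing. With reads thinned to the depth of the shallowest library 48 were higher and 14 lower, beside 28.4% and 28.1% of all genes tested. Without DMSO replicate 3 there were 47 higher and 16 lower, beside 28.5% and 29.5%. edgeR tested 97 of the LINC genes and called 44 higher and 16 lower, beside 30.9% and 32.1% (63% in all) of the genes it tested. DESeq2 called fewer genes altogether and gave 38 LINC genes higher and 11 lower, all of them also called in limma. Of the 21593 genes it tested, which include genes under the minimum mean, 19.7% were higher and 19.3% lower (39% in all). Its shares over genes at or above that mean were not computed, so that its LINC counts have no matched background. A low DMSO level let some genes in through their PhenDC3 values alone: 12 had a DMSO mean under 5, and 11 of these were higher. The reverse held for 1, LINC00211, which was lower. Among the 105 genes with both means at 5 or more, 40 were higher and 15 lower, with a median log2 change of 0.30. The shares of all genes under this limit were not computed, so that these counts have no matched background.

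**Figure D1:**
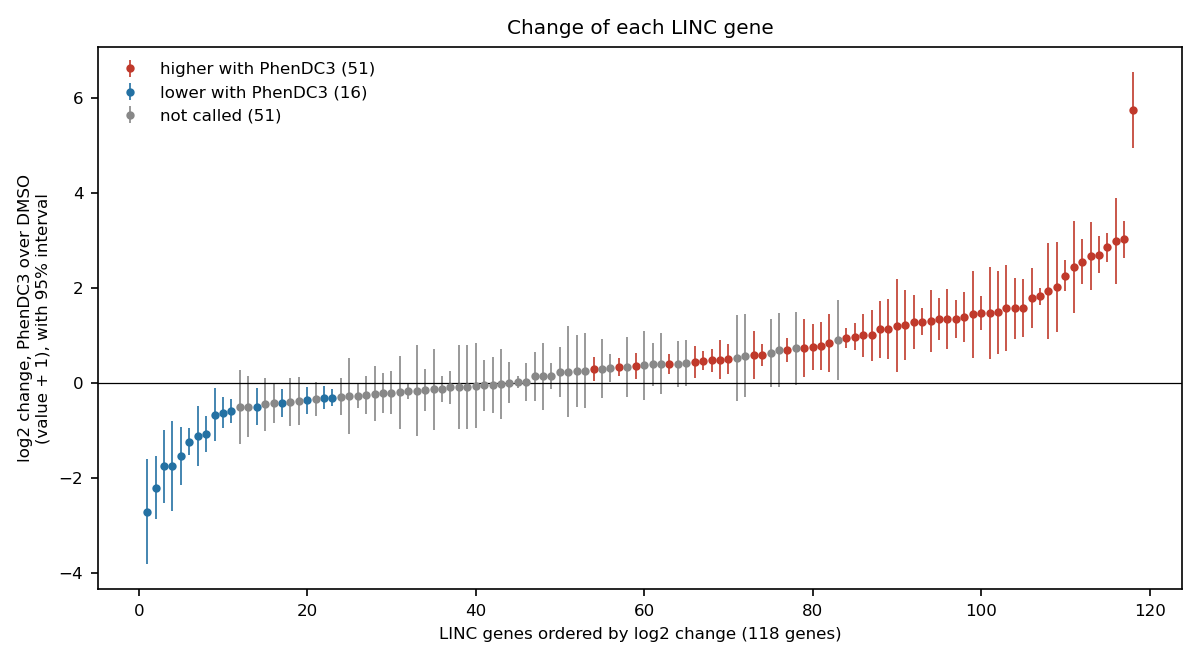
Log2 change, PhenDC3 over DMSO on log2(value + 1), of each of the 118 LINC genes in ascending order, with the 95% interval of limma as a vertical line. The red points (51 called higher) reach 5.76, the blue points (16 called lower) reach -2.72, and grey points were not called.

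The gene that rose most was almost silent in control cells and met the minimum mean only through its PhenDC3 values. LINC01647, on chromosome 1, had 69.8, 70.0 and 74.8 normalized reads in the PhenDC3 libraries, against 0, 0 and 1.38 in the DMSO libraries. The 3 PhenDC3 libraries were close together and far above all DMSO libraries. In reads this was 163 against 2, a depth-adjusted ratio of 144 with an exact 95% interval of 39.2 to 1200 that covers counting error only. The log2 change was 5.76 (SE 0.38, limma, adjusted p = 9.83e-11). Coding neighbours were taken as the nearest coding genes with a row in the deposited table, at any distance. Those of LINC01647 were too low to test. DISP3 had 0.875 normalized reads with PhenDC3 and 1.75 with DMSO, and FBXO2 had 3.93 with PhenDC3 and 0.258 with DMSO.

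LINC00854 and LINC00910, which lie next to each other on the same strand of chromosome 17, rose by similar amounts. LINC00854 is now annotated as the protein-coding gene CCDC200. It had 136, 173 and 113 normalized reads with PhenDC3, against 15.6, 18.6 and 14.5 with DMSO, or 141 ± 30.2 against 16.2 ± 2.11 (SD, n = 3 each). LINC00910 had 69.8, 72.9 and 57.7 with PhenDC3, against 9.34, 9.28 and 13.1 with DMSO. In both genes every PhenDC3 library was several times higher than every DMSO library. The log2 changes were 3.03 (SE 0.19, limma, adjusted p = 3.41e-11) for LINC00854 and 2.56 (SE 0.22, limma, adjusted p = 5.66e-09) for LINC00910. NBR1, an autophagy receptor gene downstream of LINC00854, was not called (log2 change 0.06). TMEM106A, which shares 233 exonic bases with LINC00854 on the opposite strand, was higher (log2 change 0.60), and LINC00910 shares 192 exonic bases with the small nuclear RNA pseudogene RNU2-4P.

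LINC01239, LINC00565 and LINC01711 rose, with little spread between the PhenDC3 libraries. LINC01239, on chromosome 9, had 196, 199 and 206 normalized reads in PhenDC3 cells, against 29.6, 28.6 and 22.8 in DMSO cells. LINC00565, on chromosome 13, had 163, 150 and 148 with PhenDC3, against 24.9, 16.2 and 28.96 with DMSO. LINC01711, on chromosome 20, had 180, 176 and 171 with PhenDC3, against 42.8, 28.6 and 37.2 with DMSO. For each of them the lowest PhenDC3 library was more than 3 times the highest DMSO library. The log2 changes were 2.86 (SE 0.15), 2.71 (SE 0.19) and 2.26 (SE 0.15), with limma adjusted p of 2.01e-12, 1.50e-10 and 1.28e-10. LINC00565 is now called SWINGN and has been described as an RNA that binds the SWI/SNF chromatin remodeller and acts on GAS6, the growth factor gene downstream of it. GAS6 itself had 2041 ± 181 normalized reads with PhenDC3 and 2141 ± 172 with DMSO (SD, n = 3 each), a log2 change of -0.07 that was not called. RASA3, a Ras GTPase-activating protein gene on the other side, was higher (log2 change 0.64). STX16, a syntaxin gene downstream of LINC01711, was higher (log2 change 0.58).

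The promoter windows of LINC00854 and LINC00565 are shown because these are the 2 largest rises among genes of mean 20 or above that have a RefSeq entry. They run 250 bases before to 50 bases after the annotated start, 5′ to 3′ on the gene's strand, at chr17:43231220-43231519 (minus strand) and chr13:113928942-113929241 (minus strand) of GRCh38.p14. Neither held the G quadruplex motif that was searched, 4 runs of GGG or longer with 1 to 7 of any base N between them, on either strand.
LINC00854: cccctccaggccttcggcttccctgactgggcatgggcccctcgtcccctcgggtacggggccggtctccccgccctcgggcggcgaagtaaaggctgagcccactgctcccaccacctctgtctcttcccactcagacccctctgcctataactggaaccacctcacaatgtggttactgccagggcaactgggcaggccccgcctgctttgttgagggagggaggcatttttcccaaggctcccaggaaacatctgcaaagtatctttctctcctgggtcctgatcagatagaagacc
LINC00565: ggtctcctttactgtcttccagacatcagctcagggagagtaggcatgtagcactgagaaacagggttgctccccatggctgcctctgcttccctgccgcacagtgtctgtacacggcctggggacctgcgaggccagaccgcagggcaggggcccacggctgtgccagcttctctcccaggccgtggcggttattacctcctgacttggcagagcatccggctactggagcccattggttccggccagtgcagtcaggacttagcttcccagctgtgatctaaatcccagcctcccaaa

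The other 4 of the 10 largest rises were scarcer. All 4 had a DMSO mean under 5 and met the minimum mean only through their PhenDC3 values. LINC00052, on chromosome 15, had 24.9, 13.4 and 18.4 normalized reads with PhenDC3, against 1.56, 2.32 and 0.690 with DMSO (log2 change 2.99, SE 0.43, limma, adjusted p = 5.45e-06). LINC00163, on chromosome 21, had 27.2, 20.8 and 24.9 with PhenDC3, against 3.89, 2.32 and 2.76 with DMSO (log2 change 2.68, SE 0.34, limma, adjusted p = 1.25e-06). In both, every PhenDC3 library was above every DMSO library. LINC01554, on chromosome 5, had 9.47, 11.9 and 19.7 with PhenDC3, against 0.778, 3.09 and 1.38 with DMSO. LINC01050, on chromosome 13, had 13.02, 7.44 and 10.5 with PhenDC3, against 1.56, 2.32 and 1.38 with DMSO. The groups were apart in these as well (log2 changes 2.44, SE 0.47, and 2.02, SE 0.46, limma, adjusted p = 0.000149 and 0.000726), but both genes were too low for edgeR to test.

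**Figure D2:**
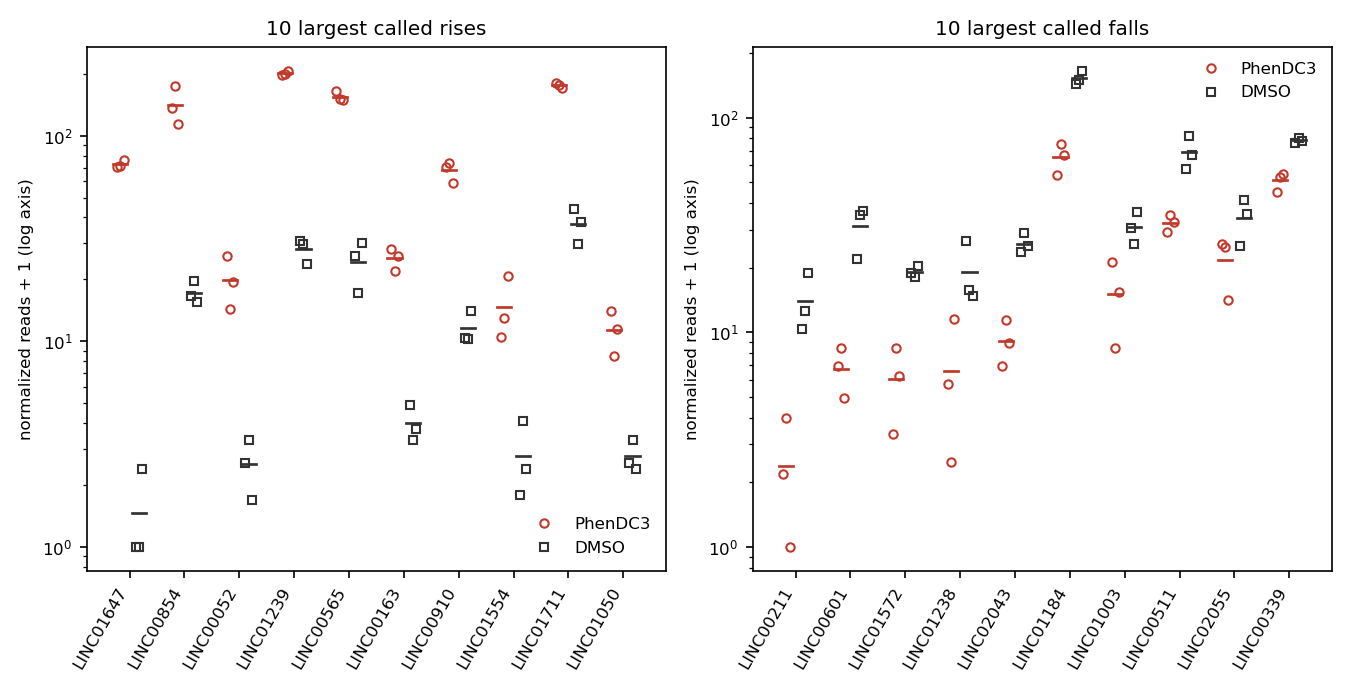
Normalized reads + 1 on a log axis in each library for the 10 largest called rises (left) and falls (right), with PhenDC3 libraries as circles left of DMSO libraries as squares and bars at the group means. In 19 of the 20 genes the groups do not overlap, and the exception is LINC02055.

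The falls were smaller and fewer. LINC00211, now PIRAT1, on chromosome 2, had 1.183, 2.98 and 0 normalized reads with PhenDC3, against 9.34, 11.6 and 17.9 with DMSO. This rests on 3 reads against 53, a depth-adjusted ratio of 0.100 with an exact 95% interval of 0.0200 to 0.309 (log2 change -2.72, SE 0.53, limma, adjusted p = 0.000185). LINC00601, on chromosome 10, had 5.92, 7.44 and 3.94 with PhenDC3, against 21.0, 34.0 and 35.9 with DMSO (log2 change -2.21, SE 0.32, limma, adjusted p = 5.47e-06). All PhenDC3 libraries were below all DMSO libraries in both genes. The downstream coding gene on the same strand was lower as well in each case. CDC42EP3, a CDC42 effector gene next to LINC00211, had 800 ± 42.1 normalized reads with PhenDC3 and 1617 ± 13.1 with DMSO. ADAM12, a metalloprotease gene next to LINC00601, had 4.38 ± 0.406 with PhenDC3 and 20.8 ± 5.77 with DMSO (SD, n = 3 each), and met the minimum mean only through its DMSO values. Their log2 changes were -1.02 and -1.99, and DOCK1, on the other side of LINC00601, was lower (log2 change -0.46).

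LINC01184 and LINC00511 were the more abundant genes with a large fall. LINC01184, now SLC12A2-DT, is transcribed away from SLC12A2, the gene of a sodium-potassium-chloride cotransporter, on chromosome 5. It had 53.3, 74.4 and 65.6 normalized reads in PhenDC3 cells, against 142, 149 and 164 in DMSO cells (log2 change -1.24, SE 0.14, limma, adjusted p = 2.45e-07). SLC12A2 was lower by less, with a log2 change of -0.37 (SE 0.09, limma, adjusted p = 0.00185). LINC00511, on chromosome 17, has been described as promoting growth of several cancers and lies beside SOX9, a developmental transcription factor gene. It had 28.4, 34.2 and 31.5 normalized reads with PhenDC3, against 56.8, 81.2 and 66.2 with DMSO (log2 change -1.08, SE 0.18, limma, adjusted p = 3.61e-05). The groups were well apart in both genes. SOX9 was lower (log2 change -0.26, SE 0.06), with 1258 ± 14.5 normalized reads with PhenDC3 and 1509 ± 43.4 with DMSO (SD, n = 3 each).

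A further 4 promoter windows are shown for the falls and for called genes with the motif. LINC01184 (chr5:128083126-128083425, minus strand) and LINC01003 (chr7:152463874-152464173, plus strand) are the 2 largest falls among genes of mean 20 or above that have a RefSeq window, and LINC00511 (chr17:72640423-72640722, minus strand) and LINC00941 (chr12:30795431-30795730, plus strand) are called genes whose window holds the motif. All are RefSeq sequences of GRCh38.p14 on the gene's strand, and the capitals mark the G quadruplex motif. It was found once, on the gene's strand, in LINC01003, LINC00511 and LINC00941, and was not found in the LINC01184 window.
LINC01184: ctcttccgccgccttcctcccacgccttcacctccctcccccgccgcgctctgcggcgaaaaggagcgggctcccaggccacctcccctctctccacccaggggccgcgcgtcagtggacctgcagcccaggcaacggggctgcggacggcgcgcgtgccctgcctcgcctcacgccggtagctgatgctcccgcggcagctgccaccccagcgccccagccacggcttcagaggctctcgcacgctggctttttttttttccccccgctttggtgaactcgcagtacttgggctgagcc
LINC01003: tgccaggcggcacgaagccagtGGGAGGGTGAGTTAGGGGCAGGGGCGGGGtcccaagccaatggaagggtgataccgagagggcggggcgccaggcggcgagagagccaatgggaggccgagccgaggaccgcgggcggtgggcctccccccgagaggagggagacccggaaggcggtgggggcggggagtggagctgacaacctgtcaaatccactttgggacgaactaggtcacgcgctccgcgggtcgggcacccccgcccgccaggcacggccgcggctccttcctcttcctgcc
LINC00511: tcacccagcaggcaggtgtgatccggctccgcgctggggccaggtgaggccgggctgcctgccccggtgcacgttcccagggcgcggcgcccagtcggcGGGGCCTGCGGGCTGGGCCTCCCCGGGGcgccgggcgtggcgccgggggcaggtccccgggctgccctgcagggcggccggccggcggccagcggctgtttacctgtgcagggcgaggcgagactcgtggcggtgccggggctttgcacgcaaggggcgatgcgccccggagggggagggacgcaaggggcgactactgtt
LINC00941: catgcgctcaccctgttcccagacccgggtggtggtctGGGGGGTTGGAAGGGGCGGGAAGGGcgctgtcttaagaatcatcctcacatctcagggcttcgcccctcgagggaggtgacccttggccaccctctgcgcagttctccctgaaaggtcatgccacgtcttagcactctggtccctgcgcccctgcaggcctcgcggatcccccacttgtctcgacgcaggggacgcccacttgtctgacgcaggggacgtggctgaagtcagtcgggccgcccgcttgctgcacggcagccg

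The remaining 6 falls were mostly of scarce genes. LINC02043 (chromosome 3) had 5.92, 10.4 and 7.87 normalized reads with PhenDC3, against 22.6, 27.8 and 24.1 with DMSO (log2 change -1.54, SE 0.29, limma, adjusted p = 0.000137). RFC4 downstream of it, the gene of a clamp loader subunit of DNA replication, was lower (log2 change -1.11). LINC01572 (chromosome 16) had 2.37, 7.44 and 5.25 with PhenDC3, against 17.9, 17.01 and 19.3 with DMSO (log2 change -1.76, SE 0.37, limma, adjusted p = 0.000392). Both its coding neighbours were higher, PMFBP1 with a log2 change of 1.88 and the transcription factor gene ZFHX3 with 0.66. LINC01238 (chromosome 2) varied most, with 4.73, 1.49 and 10.5 with PhenDC3, against 25.7, 14.7 and 13.8 with DMSO (log2 change -1.75, SE 0.46, limma, adjusted p = 0.00257). In these 3 genes the groups did not overlap. A second row with the symbol LINC01238, under the minimum mean, had a deposited log2 change of 0.07 (the authors' DESeq2, adjusted p = 0.977). LINC01003 (chromosome 7) had 20.1, 7.44 and 14.4 normalized reads with PhenDC3, against 29.6, 24.7 and 35.2 with DMSO (log2 change -1.12, SE 0.30, limma, adjusted p = 0.00324). XRCC2, a homologous recombination gene downstream of it, was lower (log2 change -0.46), and KMT2C, a histone methyltransferase gene upstream, higher (log2 change 0.50). LINC00339 (chromosome 1), which lies upstream of the GTPase gene CDC42, had 43.8, 52.1 and 53.8 with PhenDC3, against 75.5, 79.6 and 76.5 with DMSO (log2 change -0.63, SE 0.15, limma, adjusted p = 0.00156). The groups did not overlap in LINC01003 or LINC00339, and CDC42 was not called (log2 change 0.11). LINC02055 (chromosome 8) was the weakest of the 10, with 24.9, 23.8 and 13.1 with PhenDC3, against 24.1, 40.2 and 34.5 with DMSO, and groups that overlapped (log2 change -0.67, SE 0.27, limma, adjusted p = 0.0353). Its limma call was lost without DMSO replicate 2 (adjusted p = 0.156), without DMSO replicate 3 (0.0874) or without PhenDC3 replicate 3 (0.196).

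The motif was also counted across the LINC genes. Of 77 with a RefSeq window 18 held it on either strand (23.4%), beside 16.2% of 11462 RefSeq long noncoding RNA genes, 27.9% of all 27305 genes with a window and 41.4% of the tested genes. By call it was in 7 of 34 higher genes (20.6%), 2 of 13 lower genes (15.4%) and 9 of 30 genes not called (30.0%). These counts describe a string of letters and say nothing of whether a quadruplex forms or binds the ligand.

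The LINC genes with the most reads behaved differently from each other. LINC01029, on chromosome 18, held by far the most, with 2625, 2756 and 2653 normalized reads in PhenDC3 libraries, against 2647, 2716 and 2573 in DMSO libraries. Its groups overlapped fully, and the log2 change of 0.02 had a 95% interval of -0.11 to 0.14. Per kilobase of annotated exon it stood at 1279 normalized reads with PhenDC3 and 1263 with DMSO, and the next LINC genes on this scale were LINC01711 at 181 with PhenDC3 and LINC02506 at 181 with DMSO. The coding gene downstream of LINC01029 on the same strand, MBP, the myelin basic protein gene, was higher, at 20.5 ± 2.82 with PhenDC3 and 0.745 ± 0.775 with DMSO (SD, n = 3 each; log2 change 3.71, SE 0.46, limma, adjusted p = 8.45e-07). MBP met the minimum mean for testing only through its PhenDC3 values.

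LINC00641 and LINC01278 rose and LINC02535 fell among the other 4. LINC00641, on chromosome 14, had 580, 624 and 626 normalized reads with PhenDC3, against 178, 167 and 169 with DMSO, a 3.56-fold rise (log2 change 1.82, SE 0.09, limma, adjusted p = 5.07e-13). LINC01278, on chromosome X, had 553, 534 and 438 with PhenDC3, against 285, 272 and 230 with DMSO (log2 change 0.95, SE 0.10, limma, adjusted p = 1.08e-07). Each had a coding gene nearby that was lower and another that was higher. HNRNPC, an RNA-binding protein gene upstream of LINC00641, was lower (log2 change -0.75) and ZNF219 downstream higher (log2 change 0.53). SPIN4, within the span of LINC01278, was lower (log2 change -0.94), and ZXDA downstream was higher (log2 change 0.49). LINC02535, on chromosome 6, had 290, 308 and 306 with PhenDC3, against 409, 373 and 340 with DMSO (log2 change -0.31, SE 0.09, limma, adjusted p = 0.00606), and the call was lost without DMSO replicate 1 (adjusted p = 0.0530). LINC01234, on chromosome 12, had 465, 453 and 449 with PhenDC3 and 505, 530 and 508 with DMSO. Its groups did not overlap, but the log2 change of -0.17 (SE 0.08) was not called (limma, adjusted p = 0.0534).

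Among genes described in the literature on cancer cells as linked to growth or invasion, 8 of a list of 15 were measured under their LINC symbol, and calls went both ways. LINC00857 and LINC00941 were higher, LINC00511, LINC00707 and LINC00662 lower, and LINC01234, LINC01503 and LINC00346 not called, with a median log2 change of -0.19 beside -0.02 over all genes tested. LINC00941 had 189, 202 and 168 normalized reads with PhenDC3, against 121, 125 and 121 with DMSO (log2 change 0.60, SE 0.11, limma, adjusted p = 0.000113). LINC00707 had 128, 153 and 112 with PhenDC3, against 203, 203 and 181 with DMSO (log2 change -0.59, SE 0.12, limma, adjusted p = 0.000344). The groups did not overlap in either. LINC00857 had 33.1, 25.3 and 38.0 with PhenDC3, against 21.0, 17.01 and 17.2 with DMSO. LINC00662 had 134, 141 and 122 with PhenDC3, against 160, 157 and 176 with DMSO. Both were called in limma (adjusted p = 0.00870 and 0.0234) and not in DESeq2 (0.0635 and 0.112), and LINC00662 lost its limma call without DMSO replicate 3 (0.0747) or PhenDC3 replicate 3 (0.102). LINC00346, now PRECSIT, had 36.4 ± 11.9 with PhenDC3 and 41.0 ± 5.02 with DMSO, and LINC01503 had 5.11 ± 2.07 with PhenDC3 and 5.81 ± 2.19 with DMSO (SD, n = 3 each).

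The other lists by role had few genes under their LINC symbols. Of 12 genes with a described microprotein 1 was measured under its LINC symbol, LINC00665, with 9.47, 14.9 and 17.1 normalized reads with PhenDC3 and 5.45, 6.19 and 13.1 with DMSO. Its log2 change of 0.73 was not called (limma, adjusted p = 0.0936) and passed without DMSO replicate 3 or PhenDC3 replicate 1, with log2 changes of 1.08 and 0.96. The 6 listed hosts of small RNAs were not analysed here under their LINC symbols. Of 5 genes described as responding to stress, cAMP or p53 or as guarding the genome, LINC00473 had values under its LINC symbol, below the minimum, with means of 0.437 with PhenDC3 and 2.96 with DMSO.

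Several members now under descriptive names were called as well. LINC02170, now ARLNC1, an androgen receptor-regulated RNA of prostate cells, had 188, 246 and 201 normalized reads with PhenDC3, against 146, 119 and 124 with DMSO (log2 change 0.70, SE 0.12, limma, adjusted p = 5.15e-05). LINC01468, now LNCAROD, had 37.9, 50.6 and 36.7 with PhenDC3, against 10.9, 15.5 and 20.7 with DMSO (log2 change 1.39, SE 0.25, limma, adjusted p = 7.98e-05). Neither pair of groups overlapped. LINC01481, now PRANCR, described in keratinocyte progenitors, had 26.3 ± 2.197 with PhenDC3 and 14.9 ± 1.42 with DMSO. LINC00704, now MANCR, an RNA tied to mitosis in cancer cells, had 35.7 ± 6.91 with PhenDC3 and 50.3 ± 3.33 with DMSO (SD, n = 3 each), and DESeq2 called neither of these 2 (adjusted p = 0.0878 for PRANCR and 0.176 for MANCR). MANCR lost its limma call without DMSO replicate 1 (adjusted p = 0.0634) or 3 (0.0877) or without PhenDC3 replicate 2 (0.119).

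**Figure D3:**
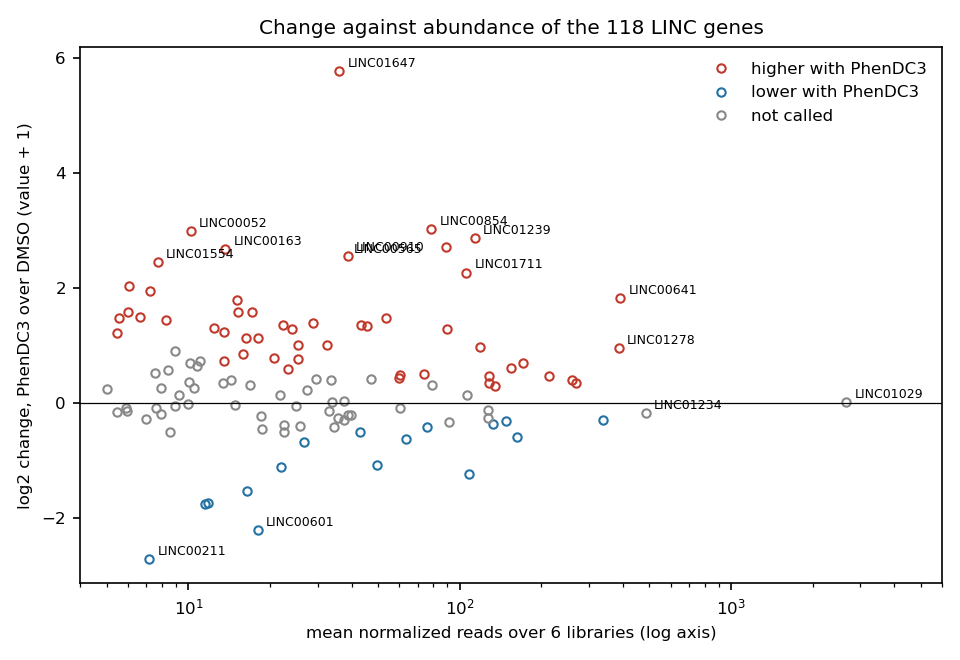
Log2 change, PhenDC3 over DMSO on log2(value + 1), against the mean normalized reads of all 6 libraries on a log axis for the 118 LINC genes, coloured by call. Called rises reach up to a mean of 391 (LINC00641). The 2 genes above it, LINC01234 at 485 and LINC01029 at 2662, were not called, and LINC01029 lies at 0.02.

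Precision followed abundance. The median mean was 25.1 normalized reads, between 5.02 and 2662, and 23 genes had 100 or more. The coefficient of variation within a group was set beside the counting value, 1 over the square root of the mean reads. The median SD of 3 libraries lies below the true SD. A coefficient under the counting value thus does not show less spread than counting alone. In genes with a mean of 5 to under 20 the median coefficient was 28.1% in PhenDC3 libraries and 27.6% in DMSO libraries, where counting gives 34.3% with PhenDC3 and 30.9% with DMSO. At 20 to under 100 it was 13.02% with PhenDC3 and 14.2% with DMSO, where counting gives 18.8% with PhenDC3 and 15.9% with DMSO. At 100 or more it was 8.33% with PhenDC3 and 8.52% with DMSO, where counting gives 8.66% with PhenDC3 and 7.07% with DMSO. The 51 genes not called had a median 95% interval of ± 0.58 on the log2 scale. Of these, 35 had an interval that lay within -1 to 1 and 7 one within -0.5 to 0.5. The intervals are on log2(value + 1), where fold changes of scarce genes are lowered. An interval within -1 to 1 thus does not exclude a 2-fold change of a scarce gene. The widest change among the 51 was 0.91, in LINC00898, with 17.8, 11.9 and 6.56 with PhenDC3 and 7.78, 3.87 and 5.52 with DMSO.

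Summed over the 118, normalized reads were 10436 ± 248 with PhenDC3 and 8443 ± 198 with DMSO, or 7758 ± 182 with PhenDC3 and 5798 ± 130 with DMSO when LINC01029 is left out (SD, n = 3 each). They made up 0.0947% ± 0.00266 of all reads in PhenDC3 libraries and 0.0859% ± 0.00215 in DMSO libraries. The share rose by less than the sum, because normalized reads over all genes also summed higher in every PhenDC3 library than in every DMSO library. No library stood apart across the genes, since each library held its group's lowest value in 35 to 46 of the 118.

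Other long intergenic and antisense RNAs also had medians above 0, and pseudogenes did not. Of 485 further genes typed as long intergenic RNA 38.1% were higher and 10.9% lower, with a median log2 change of 0.37, beside 0.36 for the 118. Of 771 antisense genes 30.7% were higher and 10.6% lower (median 0.28), and of 12279 protein-coding genes 30.8% were higher and 34.3% lower (median -0.03). Of 2045 genes with any pseudogene type 13.8% were higher and 26.1% lower (median -0.19). Protein-coding genes had a lower median than both kinds of long intergenic RNA in each range of abundance. At a mean of 5 to under 20 the medians were 0.46 for LINC genes, 0.36 for other long intergenic RNAs and 0.22 for protein-coding genes, and at 100 or more 0.34, 0.47 and -0.04. By call, annotated exonic length had medians of 2518 bases for the higher, 3298 for the lower and 2811 for the genes not called, and the longest transcript by exon number had a median of 4 exons in each.

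**Figure D4:**
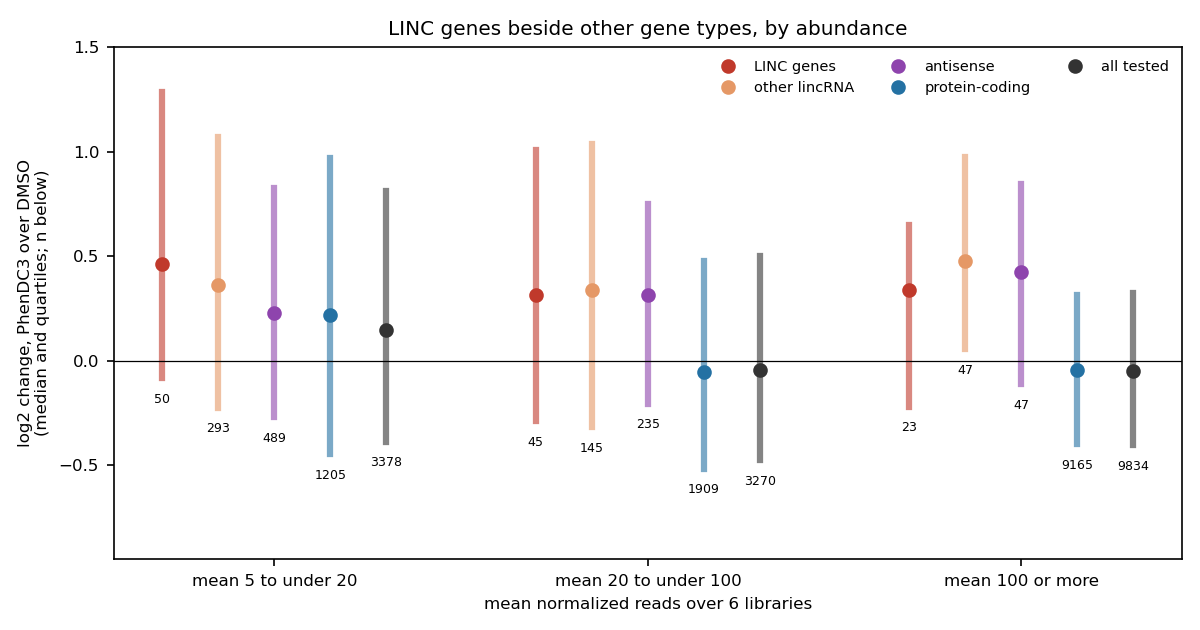
Median log2 change (point) and quartiles (bar), PhenDC3 over DMSO, of LINC genes and other gene types in 3 ranges of mean normalized reads, with the number of genes under each bar. LINC genes lie at 0.46, 0.31 and 0.34 and all tested genes at 0.15, -0.04 and -0.05 in order of abundance.

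Changes of LINC genes and of their nearest coding genes in the deposited table were weakly correlated. Coding genes without a row there were passed over, so that a neighbour may not be the closest coding gene. In 219 pairs of 115 LINC genes with a tested coding neighbour, Pearson's r between the log2 changes was 0.0859 and Spearman's rho 0.0739, across genes that share libraries and sometimes a neighbour. By position, r was 0.241 over 52 downstream neighbours on the same strand, 0.0191 over 54 upstream on the same strand, 0.0503 over 54 upstream on the opposite strand and -0.0992 over 44 downstream on the opposite strand. Of 91 pairs with a higher LINC gene 31 neighbours were higher and 27 lower. Of 29 pairs with a lower LINC gene 9 were higher and 12 lower. Over all protein-coding genes tested, 30.8% were higher and 34.3% lower. CCDC200, which is LINC00854 itself, counts among the downstream neighbours, beside LINC00910. The widest contrasts included AKR1C1, upstream of LINC00704, and PCDH9, a protocadherin gene upstream of LINC00355. AKR1C1 is an aldo-keto reductase gene with near-identical copies that may share reads. It had 62.1 normalized reads with PhenDC3 and 2.44 with DMSO while LINC00704 was lower (log2 change -0.50). AKR1C1 met the minimum mean only through its PhenDC3 values. PCDH9 had 8.22 with PhenDC3 and 40.4 with DMSO while LINC00355 was higher (log2 change 1.29).

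**Figure D5:**
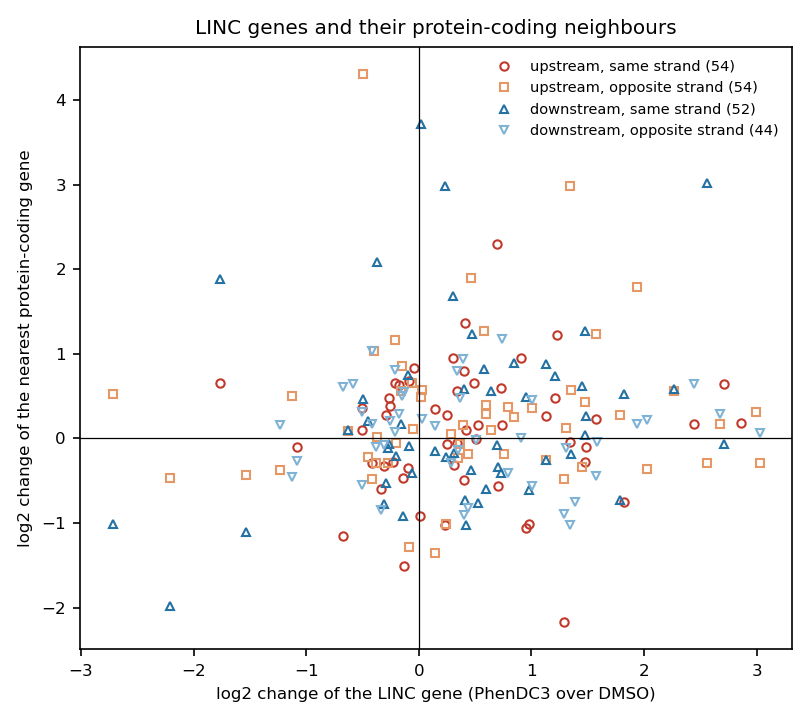
Log2 change of the nearest protein-coding gene of the deposited table on each side, where it was tested (vertical axis) against that of the LINC gene (horizontal axis), PhenDC3 over DMSO, 1 point a pair, by side and strand. The 15 pairs whose spans overlap are not drawn, and r by position lies between -0.0992 and 0.241.

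A subset is named for a start shared with a coding gene. Of 7 that are now named as divergent transcripts of such a gene, LINC01184 was lower together with SLC12A2. LINC01771 (LRP8-DT) had 7.75 normalized reads with PhenDC3 and 7.47 with DMSO, while LRP8, a lipoprotein receptor gene, was lower (log2 change -1.28). LINC01137 (ZC3H12A-DT) had 8.67 with PhenDC3 and 9.23 with DMSO, while ZC3H12A, a ribonuclease gene of inflammation, was higher (log2 change 0.66). LINC01265 (OSMR-DT) was not called (log2 change -0.28), and OSMR, the oncostatin M receptor gene, was lower (log2 change -0.30). LINC01534 (ZNF567-DT) was higher in limma (log2 change 1.48), with a DMSO mean of 2.50, but not called in DESeq2 (adjusted p = 0.0637) and not tested in edgeR, and ZNF567 was not called (log2 change 0.43).

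Some LINC genes lie side by side. Of 5 adjacent pairs with no coding gene of the deposited table between them 3 had both members higher. Taken singly, 43.2% of the 118 and 29.2% of all genes tested were higher, and no share of adjacent pairs over all genes was computed. The 3 pairs were LINC00854 with LINC00910, LINC01443 with LINC01444 on chromosome 18 (log2 changes 1.58 and 1.34) and LINC01128 with LINC00115 on chromosome 1 (0.47 and 1.58). In the other 2, LINC00308 was higher and LINC01687 not called, and neither LINC01204 nor LINC01186 was called. LINC01128 and LINC00115 share 92 exonic bases on opposite strands, and 39 of the 118 share exonic bases with some other gene of GENCODE 29. As the sources used here do not say whether counting used the strand, reads of those 39 may belong in part to the other gene. Among the 79 without such overlap 34 were higher and 8 lower, with a median log2 change of 0.34. No share of all genes without such overlap was computed.

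The minimum of 5 normalized reads left 140 LINC genes out. Just inside it were LINC00562 (mean 5.02), LINC01503 (5.46) and LINC00638 (5.47), and just outside LINC00471 (4.92), LINC00324 (4.88) and LINC01561 (4.62). LINC00471 had 2.37, 4.47 and 3.94 with PhenDC3 and 3.89, 10.1 and 4.83 with DMSO, and LINC01561 had 7.10, 4.47 and 6.56 with PhenDC3 and 3.11, 2.32 and 4.14 with DMSO. LINC00638 was called higher, with 5.92, 7.44 and 10.5 with PhenDC3, against 4.67, 1.55 and 2.76 with DMSO (limma, adjusted p = 0.0313), and lost the call without DMSO replicate 2 (0.132) or 3 (0.0515) and without PhenDC3 replicate 2 (0.0550) or 3 (0.122). Every one of the 140 had a read in some library. Their PhenDC3 mean was above the DMSO mean in 86 and below it in 54, 10 had a PhenDC3 mean of 5 or more and 4 a DMSO mean of 5 or more.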

How the data were processed

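Per the labels' protocols, TRIzol was used for RNA extraction and a stranded mRNA kit for the poly(A) libraries. The build hg19 and the tools STAR 2.7, featureCounts, TopHat2 2.0.11, Cufflinks 2.2.1, Cuffdiff, CASAVA and DESeq2 1.18.1 stand in the submitters' processing notes, without their roles. The annotation and the strand setting behind the counts are not given in the sources at hand. The authors' deposited signal columns are gene counts divided by a size factor, and 100% of values came out as whole reads within a relative tolerance of 1e-06. The authors' deposited log2 fold change and adjusted p-value were used only as an alternative and for the second LINC01238 row.

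Per-library values were tested in limma 3.58.1 (R 4.3.3) on log2(value + 1) with a variance trend, for 16482 genes with a mean of 5 or more, with Benjamini-Hochberg adjustment over all of them and a threshold of 0.05. Fold changes of scarce genes are lowered by the added 1. edgeR 4.0.16 and DESeq2 1.42.0 were run on the recovered reads as alternatives, and edgeR called 9437 of 14984 genes. No library repeated another (chi-square per degree of freedom 1.45 to 7.75). The labels do not say whether replicate numbers pair the samples. Residuals of same-numbered libraries had correlations of 0.00788, 0.0712 and 0.0270. With 3 libraries a group and spread near counting error, such values cannot exclude shared cultures.

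The genes named are the 10 largest called rises and falls, the 5 with most reads, the 3 on each side of the minimum and those of the role lists; other genes, neighbours among them, were named after their values were seen. The members, lists and rules were chosen with earlier results of these data known. Gene order, types and exon overlaps come from GENCODE 29, and promoters from RefSeq (GRCh38.p14), for which 77 of 118 genes matched. No coordinates of the table's own build are printed. Limma was tested on simulated reads first. Tables and figures were made in Python 3.11.15 with pandas 2.3.3, scipy 1.17.1 and matplotlib 3.10.9.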

Additional observations from a re-analysis of the deposited data

How the results depend on the processing

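A required log2 change of at least 1 lowered the counts by construction, to 33 LINC genes higher, 8 lower and 41 in all, and to 2692 of all genes. The median log2 change of the 118 was 0.31 with a pseudocount of 5 and 0.40 with thinned reads, and 0.32 to 0.40 when 1 library was left out (0.36 as reported); the cause was not tested. Leaving out 1 library gave 44 to 50 higher, 12 to 17 lower and 8965 to 9564 of all genes called. Other alternatives moved no count of calls by more than 1.5 times. With the replicate number as a block 52 were higher and 17 lower, and 10155 of all genes were called, but the labels do not say whether the numbers pair the samples. Of the 67 called LINC genes 52 kept the call in every fit without 1 library and 47 under every alternative with a test, and none changed sign with a call. Depth limits the genes with a mean under 20, where edgeR left 21 of the 118 untested.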

Other observations

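A further 58 genes with a mean of 5 or more have a LINC name in GENCODE 29 but another symbol or none in the table, and 55 of them had no symbol. In limma 25 were higher with PhenDC3 (43.1%) and 5 lower (8.62%), with a median log2 change of 0.54. Over all genes tested, 29.2% were higher and 30.4% lower, with a median of -0.02. Of the 485 further genes typed as long intergenic RNA, which may include some of these, 38.1% were higher and 10.9% lower (median 0.37). LINC00942, on chromosome 12, had 60.4, 71.5 and 59.0 normalized reads with PhenDC3, against 0.778, 0.773 and 4.83 with DMSO. LINC02154, on chromosome X, had 27.2, 20.8 and 24.9 with PhenDC3, against 0.778, 0 and 0.690 with DMSO. Both met the minimum mean only through their PhenDC3 values, as did LINC00623, LINC01705 and LINC00943, which were also called higher. LINC00705, called lower, met it only through its DMSO values. Of the growth and invasion list, LINC00520 was higher, with 101 ± 10.1 with PhenDC3 and 14.0 ± 4.65 with DMSO. LINC00973 was also higher, with 212 ± 18.6 with PhenDC3 and 147 ± 6.85 with DMSO, and LINC01116 was lower, with 88.8 ± 11.3 with PhenDC3 and 151 ± 31.7 with DMSO (SD, n = 3 each). LINC00467, of the microprotein list, had 51.2 ± 9.14 with PhenDC3 and 17.8 ± 2.69 with DMSO, and was higher. LINC00472, of the list for stress, cAMP, p53 and genome guarding, was not called, with 36.5 ± 9.49 with PhenDC3 and 26.3 ± 10.4 with DMSO. LINC01521, on chromosome 22, fell most, with 9.47, 10.4 and 5.25 with PhenDC3, against 28.0, 20.1 and 22.8 with DMSO.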
